A study of Mus musculus with 4 samples.

Results

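Heat-shock genes were followed across 4 single-cell RNA libraries of mouse bone marrow. The 8 genes, of 32285 in the deposited matrices, were Hspa1a, Hspa1b, Dnajb1, Hsph1, Hsp90aa1, Hspa8, Hspb1 and Cryab. They were picked by name, after results of these libraries were known, among them differences between the Mll3/4SI and control libraries, so those differences are given as a description. All 4 libraries came from CD45.2+ cells sorted from bone marrow 10 weeks after transplantation, and each was the only library of its group. Kit+ cells, a stem and progenitor fraction, gave a control library, a library in which Mll3/4 was deleted and a library labelled Mll3/4SI. The other control library held B220lo cells, a B-lineage fraction. Mll3 and Mll4 are common names of Kmt2c and Kmt2d, which encode histone methyltransferases that act on H3 lysine 4 at enhancers. What SI stands for, how the genes were deleted, the strains, and the number of donors and recipients in each library are not given in the sources used here. Cells were grouped by their own count of a lineage gene, in unique molecular identifiers (UMIs, 1 per captured transcript). The groups were cells with at least 1 UMI of Hlf, 10 of Elane, 10 of Car1, 3 of Pf4, 3 of Fcer1a or 3 of Cd79a, and a cell could fall in more than 1 class. With 1 library per group there is no replicate spread, so no test was made. Each difference compares 2 libraries, and each interval covers counting error only.

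Heat-shock proteins are chaperones, which bind unfolded proteins and help them fold. Hspa1a and Hspa1b encode the stress-inducible HSP70, and Hspa8 its constitutive relative. Dnajb1 is an HSP40 co-chaperone that hands clients to HSP70, Hsph1 (HSP110) is a nucleotide exchange factor for it, and Hsp90aa1 is the inducible cytosolic HSP90. Hspb1 and Cryab encode small heat-shock proteins, which hold clients without using ATP. The inducible genes are classical targets of heat-shock factor 1, which binds repeats of the unit GAA or its complement TTC in their promoters.

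Hspa1a and Hspa1b lie side by side on the minus strand of chromosome 17. On GRCm38, by GENCODE M21, Hspa1a is at chr17:34969190-34972156 and Hspa1b at chr17:34956436-34959238, with 9951 bases between them. Their coding sequences were 99.43% identical and their 5′ untranslated regions 98.7%, against 47.31% for the 3′ untranslated regions. Reads from the 5′ end may therefore be assigned to the wrong gene of the pair or left uncounted where both match, which was not checked. Their sum, called Hspa1 here, is given beside each gene, but it does not restore uncounted reads. Dnajb1 is at chr8:83608193-83612653 (plus strand), Hsph1 at chr5:149614287-149636376 (minus) and Hspb1 at chr5:135887919-135889563 (plus). Hsp90aa1 is at chr12:110690605-110702728 (minus), Hspa8 at chr9:40800984-40810087 (plus) and Cryab at chr9:50751325-50756636 (plus).

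Of the 8 genes, 5 had a promoter in the RefSeq table. The 250 bases before the start are shown for all 5, since Hspa1a and Hspa1b differed between libraries while Dnajb1 and Hsph1 did not pass 2-fold and Hspb1 was barely detected. Sequences are from RefSeq on GRCm38.p6, 5′ to 3′ on the gene's strand, and capitals mark a 2-unit heat-shock element, GAANNTTC or TTCNNGAA on either strand.
Hspa1a, chr17:34972157-34972406, minus: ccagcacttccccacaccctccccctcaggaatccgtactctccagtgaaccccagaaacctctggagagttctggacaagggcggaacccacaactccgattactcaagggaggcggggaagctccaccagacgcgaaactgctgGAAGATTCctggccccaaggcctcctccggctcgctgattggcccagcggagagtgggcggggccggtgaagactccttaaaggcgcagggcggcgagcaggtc
Hspa1b, chr17:34959239-34959488, minus: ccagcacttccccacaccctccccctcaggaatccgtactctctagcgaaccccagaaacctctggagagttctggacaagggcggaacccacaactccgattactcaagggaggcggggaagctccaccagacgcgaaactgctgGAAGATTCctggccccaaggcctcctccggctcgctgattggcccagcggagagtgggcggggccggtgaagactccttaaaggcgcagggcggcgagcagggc
Dnajb1, chr8:83607925-83608174, plus: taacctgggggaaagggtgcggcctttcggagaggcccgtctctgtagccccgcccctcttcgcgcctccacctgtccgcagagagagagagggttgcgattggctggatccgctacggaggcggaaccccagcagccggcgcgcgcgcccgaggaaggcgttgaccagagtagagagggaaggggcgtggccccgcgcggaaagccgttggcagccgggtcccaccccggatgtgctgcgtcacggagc
Hspb1, chr5:135887669-135887918, plus: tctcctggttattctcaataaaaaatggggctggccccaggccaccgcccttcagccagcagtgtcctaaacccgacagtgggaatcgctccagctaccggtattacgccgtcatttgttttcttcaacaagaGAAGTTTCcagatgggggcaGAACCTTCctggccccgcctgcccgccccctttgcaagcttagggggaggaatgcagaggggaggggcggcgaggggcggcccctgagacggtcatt
Hsph1, chr5:149636337-149636586, minus: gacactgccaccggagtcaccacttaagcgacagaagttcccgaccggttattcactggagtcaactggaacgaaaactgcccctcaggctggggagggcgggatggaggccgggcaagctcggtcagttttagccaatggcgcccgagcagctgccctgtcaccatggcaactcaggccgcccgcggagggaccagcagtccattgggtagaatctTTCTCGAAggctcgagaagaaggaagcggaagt
The Hspa1a and Hspa1b windows differed at 3 of 250 positions, C44T, T47C and T249G, with the Hspa1a base first and positions counted from the window's 5′ end. Both hold 1 element, 104 bases before the start, and Hspb1 holds 2. Hsph1 holds 1, 33 bases before this start and 54 before its other RefSeq start. The Dnajb1 window has none of these letters. Among 32851 RefSeq promoter windows of the same length, 12.8% hold a 2-unit element. A 3-unit form, GAANNTTC followed by NNGAA or TTCNNGAA followed by NNTTC, stood in 0.466% of all windows and in none of those shown.

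Several facts of the libraries bear on all values. After removal of low-quality barcodes and doublets, 11051 control, 13747 deleted and 11501 SI Kit+ cells and 15380 B220lo cells remained, with medians of 11594, 6507, 11969 and 3246 UMIs. Over all cells, Kmt2c was at 51.8 to 62.7 and Kmt2d at 20.1 to 24.0 CPM (the gene's UMIs per 1000000 UMIs of the cells) in the Kit+ libraries. Within classes both were lower with the deletion, at 0.747 and 0.550 of control in Hlf and 0.744 and 0.791 in Elane cells. In deleted Car1 cells their log2 ratios to control were -0.23 and -0.12, beside a median of -0.14 for all genes. In SI classes with enough UMIs their log2 ratios ran from -0.62 in Pf4 to 0.10 in Elane. Reads come from the 5′ end, so these counts do not check a deletion further inside the gene. Xist had 0.350 CPM in the deleted library against 423 to 541 CPM in the other 3, and Ddx3y had 31.4 CPM there against at most 0.13 CPM elsewhere. Sex and genotype therefore cannot be told apart in the deleted comparison. Each pair of libraries shared 214 to 345 cell barcodes, 1.48% to 2.34% of those of a library. How many would be shared by chance was not worked out, so nothing is read from this number. The Hlf, Elane and Fcer1a cells of the control B220lo library, 58, 102 and 26 in number, went against their control label in part. In its Elane class Cryab was at 13.4 CPM and Serpina3i at 26.2 CPM, where control Kit+ cells of the class had 0 UMIs of either and SI cells had 10.3 and 49.2 CPM. Serpina3i was at 59.9 CPM in its Hlf and 131 CPM in its Fcer1a cells, against 1 UMI and 0 in control Kit+. Tpm3-rs7 was nearer the control in its Hlf cells, at 34.4 CPM against 50.3 in control Kit+ and 2.19 in SI, and lay between them in its Elane cells at 12.3 CPM (49.5 and 1.84). Zfp976 and Car3, low in SI, were near the SI level in both. On few UMIs, Zfp976 was at 1.5 CPM (1 UMI) in B220lo Hlf cells (12.2 in control, 0.5 in SI) and had 0 UMIs in Elane cells (7.66 and 0.255 CPM), and Car3 was at 2.99 CPM (20.4 and 1.69) and at 0.536 CPM (19.2 and 0.782). The B220lo Elane cells also carried mature neutrophil markers at a summed 24068 CPM, against 636 CPM in control Kit+ cells. Of the 102 cells, 0 had a barcode that the control Kit+ library also held, 2 one of the deleted library and 1 one of the SI library. The cause was not tested. Fold comparisons use the Kit+ libraries alone, and where B220lo cells enter a correlation it is given with and without them.

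Hlf marks stem and early progenitor cells, Elane granulocyte progenitors, Car1 erythroid progenitors, Pf4 the megakaryocyte lineage, Fcer1a mast cells and basophils, and Cd79a B cells. All 6 Elane-class markers, Elane, Mpo, Prtn3, Ctsg, Ms4a3 and Cebpe, were detected in each library, at a summed 43634 CPM in control, 48501 in deleted and 49382 in SI Kit+ cells. All markers of the Hlf, Car1, Pf4 and Fcer1a classes were detected in the control and SI Kit+ libraries too, but the classes were mixed. Only 3 of the 8 Hlf-class markers were at least 2-fold higher in Hlf cells than in all kept cells, in control and SI alike. Elane-class markers summed to 17035 CPM in control, 23206 in deleted and 13067 in SI Hlf cells, where Hlf-class markers summed to 1115, 1103 and 1226 CPM. They summed to 4864 and 2222 CPM in control and SI Pf4 cells and to 9210 and 6067 CPM in Fcer1a cells, above the 2861 and 3235 CPM of the Fcer1a-class markers there. Class sizes were far apart, however. The Hlf class had 2493 control, 186 deleted and 3238 SI cells, the Elane class 4223, 554 and 3345, and the Car1 class 2288, 62 and 869. The Pf4 class had 590 control and 472 SI cells and the Fcer1a class 127 and 2341. The deleted library held 13 and 4 cells of those classes and was not compared there. Most of its cells, 12591, were Cd79a cells, of which control and SI Kit+ held 47 and 28. Overlap differed as well, since 35.8% of control and 69.1% of SI Pf4 cells also met another rule. Pf4-class markers summed to 3568 CPM in control and 1716 CPM in SI Pf4 cells, and Fcer1a-class markers there to 254 and 1428 CPM. In the Hlf class Fcer1a-class markers summed to 280 CPM in control and 1026 CPM in SI cells. In the Elane class mature neutrophil markers summed to 636, 797 and 1106 CPM and T and NK cell markers to 718, 642 and 275 CPM in control, deleted and SI cells. From control to SI, mature neutrophil markers went from 28.8 to 622 CPM in Fcer1a, 540 to 1169 in Pf4 and 327 to 512 in Hlf cells. T and NK cell markers went from 527 to 41.9 CPM, 357 to 106 and 459 to 82.4 in the same order. Of that list, Cd3e, Trbc2, Nkg7 and Klrb1c, only Nkg7 had a UMI in control Pf4 and deleted Elane cells. Cd3e and Trbc2 had none in control Fcer1a cells, while all 4 genes were detected in control Hlf and Elane cells. The sums are therefore not read as T or NK cell content. Cd79a-class markers, of B cells, summed to 688, 623 and 329 CPM in deleted Hlf, Elane and Car1 cells, against 42.8, 52.7 and 8.24 CPM in control and 43.6, 52.4 and 16.8 CPM in SI. How far this mixture moved the heat-shock values was not tested beyond the count of cells that met exactly 1 rule, given in the closing section.

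HSP70 transcripts were higher in every SI class that could be compared. In the Elane class, Hspa1a was at 3.84 CPM (95% Poisson interval 3.37 to 4.36, 240 UMIs) in control, 13.2 CPM (11.1 to 15.5, 145 UMIs) in deleted and 25.3 CPM (24.0 to 26.6, 1389 UMIs) in SI cells. Hspa1b was at 5.50 CPM (4.94 to 6.12), 14.6 CPM (12.4 to 17.0) and 33.6 CPM (32.1 to 35.2) in the same order. The 3 intervals did not overlap for either gene, and the SI library was the highest. In the Hlf class, named for a stem cell transcription factor, Hspa1a was at 2.12 CPM (1.62 to 2.71), 4.92 CPM (2.75 to 8.12) and 18.3 CPM (17.1 to 19.7) in control, deleted and SI. Hspa1b there was at 3.0 CPM (2.41 to 3.70), 12.5 CPM (8.82 to 17.1) and 27.9 CPM (26.3 to 29.6). In the Car1 class, whose markers are those of erythroid progenitors, control cells had, over the whole class, the highest level of the 5 control Kit+ classes compared and the SI ratio was the smallest. Both moved within the class, since summed Hspa1 was at 4.54 CPM (5 UMIs) in control and 57 CPM in SI cells with 10 to 12 Car1 UMIs, but at 18.8 and 41.2 CPM in cells with 100 or more. Hspa1a was at 5.23 CPM in control, 2.36 CPM (3 UMIs) in deleted and 15.0 CPM in SI, and Hspa1b at 11.4, 9.44 and 33.5 CPM.

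The SI library exceeded the control library most in the Pf4 and Fcer1a classes, where control cells had few HSP70 transcripts. In the Pf4 class Hspa1a went from 0.568 CPM (4 UMIs) to 22.7 CPM (139 UMIs) and Hspa1b from 2.41 to 52.9 CPM. In the Fcer1a class both genes were at 1.40 CPM in control, from 2 UMIs each, against 31.8 and 49.5 CPM in SI. As ratios of CPM, SI over control, Hspa1a was 8.66-fold higher in the Hlf class (6.68 to 11.4), 6.58-fold in Elane (5.73 to 7.58) and 2.87-fold in Car1 (2.38 to 3.45). Hspa1b ratios were 9.29 (7.48 to 11.7), 6.11 (5.44 to 6.87) and 2.93 (2.59 to 3.32). For Pf4 and Fcer1a the ratios were 39.9 and 22.6 for Hspa1a and 21.9 and 35.2 for Hspa1b, with intervals as wide as 9.74 to 291 because the control counts were small.

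Ordered by the summed Hspa1 level, the control classes ran Car1 (16.7 CPM), Elane (9.34), Hlf (5.12), Pf4 (2.98) and Fcer1a (2.81). The intervals of Hlf, Pf4 and Fcer1a overlapped as neighbours, while those of Car1 and Elane stood apart. In SI cells the order was Fcer1a (81.2 CPM), Pf4 (75.6), Elane (58.9), Car1 (48.5) and Hlf (46.2). There the intervals of Fcer1a and Pf4 overlapped, as did those of Car1 and Hlf. The control classes spanned 2.81 to 16.7 CPM and the SI classes 46.2 to 81.2 CPM, so the lowest SI class lay above the highest control class. Cd79a cells, which the deleted and B220lo libraries held in number, had 5.26 CPM (4.81 to 5.73) and 3.23 CPM (2.77 to 3.75) of Hspa1.

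**Figure D1:**
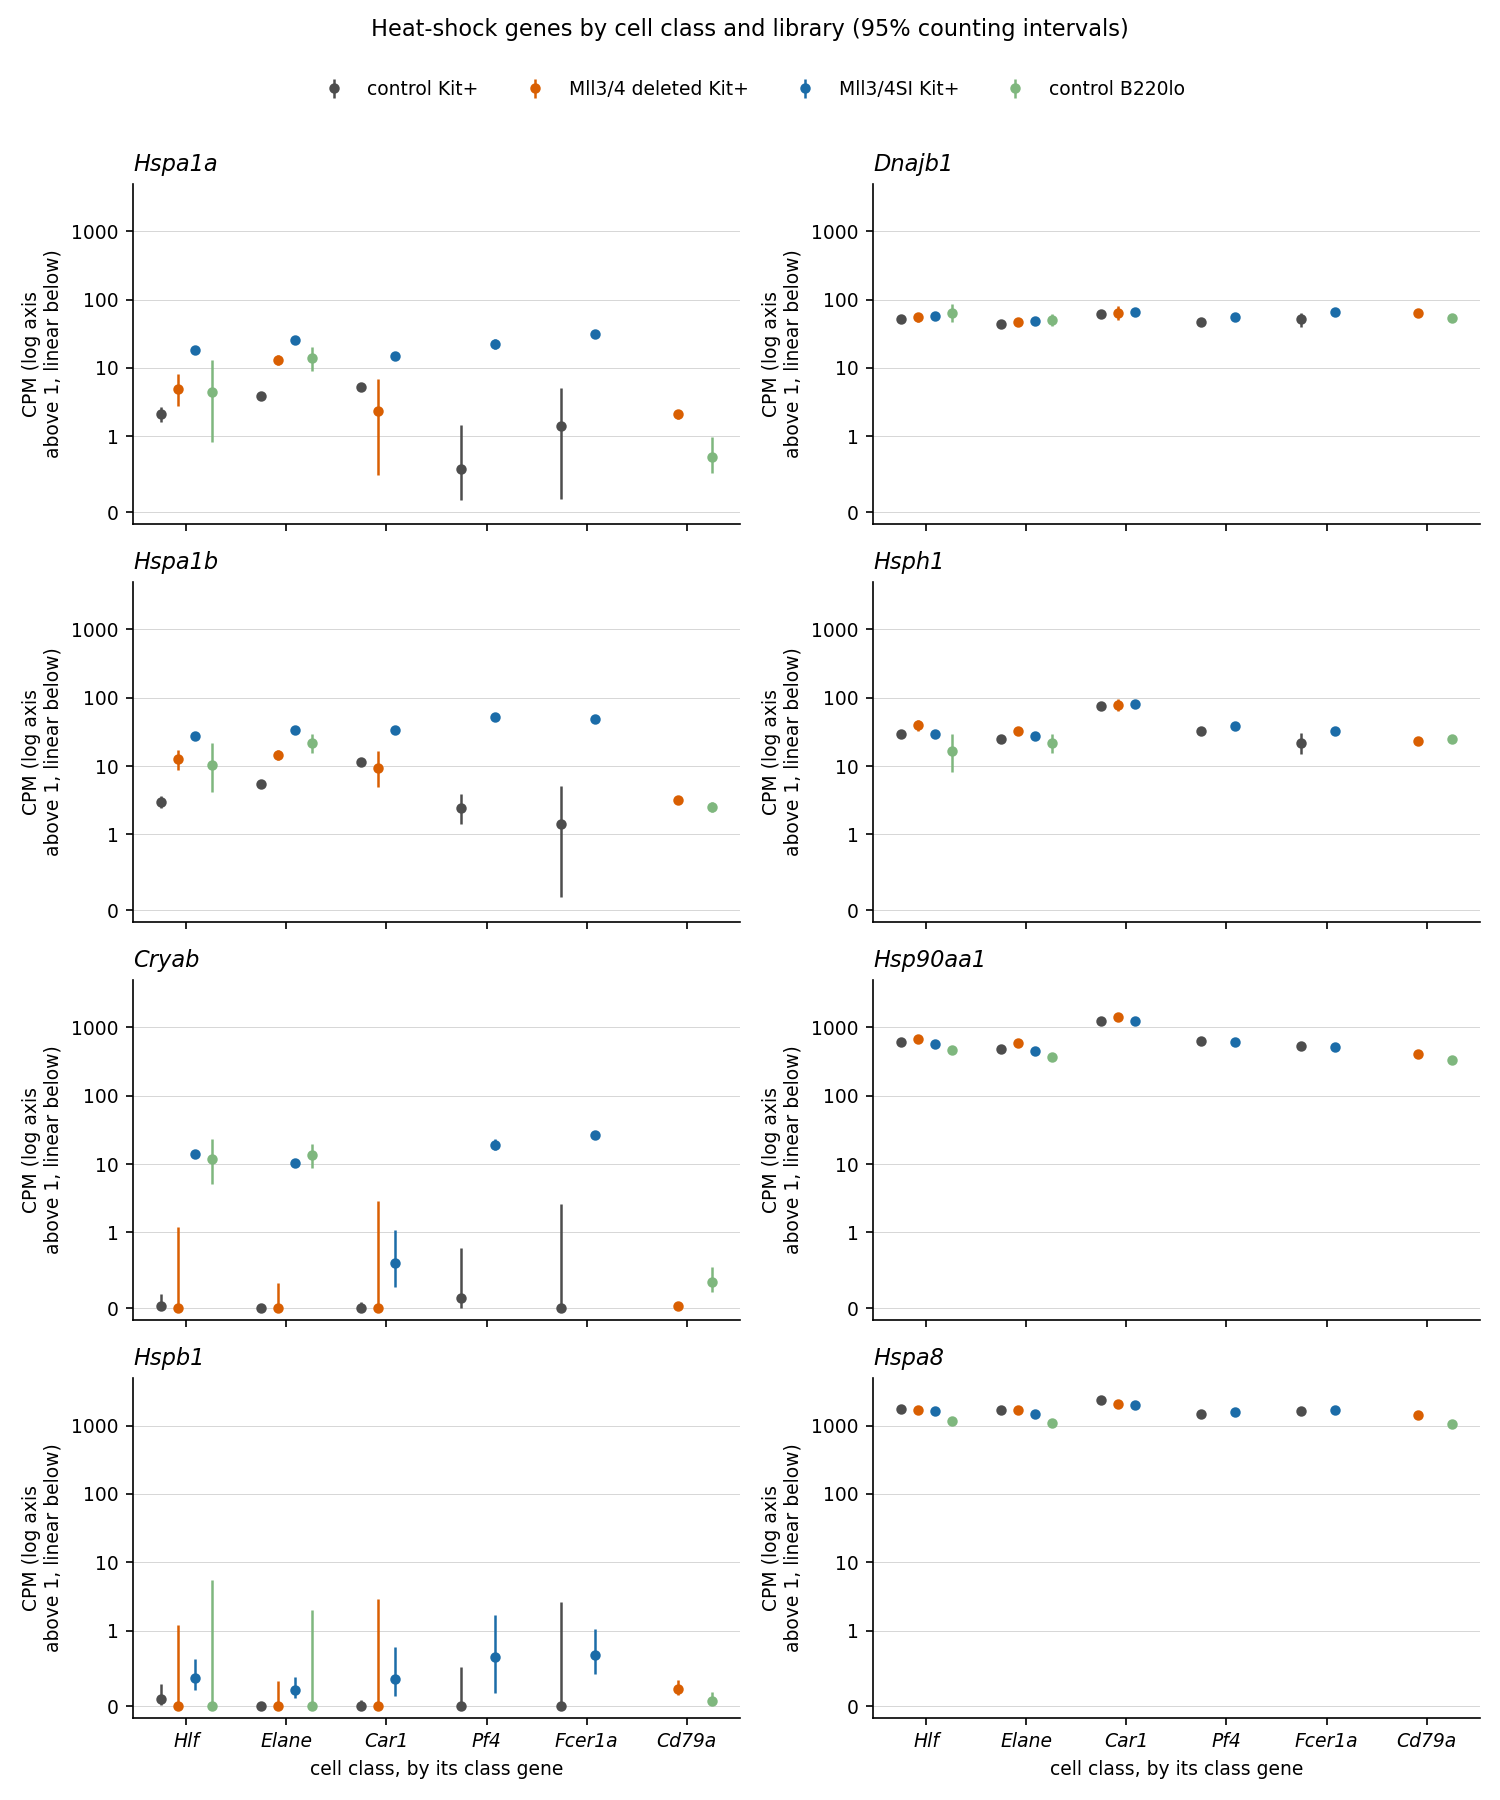
CPM of each of the 8 heat-shock genes (panels) by cell class (x axis) and library (colours), with 95% exact Poisson intervals, on y axes that are logarithmic above 1 CPM and linear below, for groups of at least 50 cells. For Hspa1a and Hspa1b the SI points lie above the control points in all 5 classes compared, and for Cryab in Hlf, Elane, Pf4 and Fcer1a, whereas the libraries lie within 2-fold of each other for Hsp90aa1 and Hspa8 in each class.

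Cryab, the gene of alpha-B-crystallin, known best from lens and muscle, was all but absent from the control and deleted Kit+ libraries, but not from the few Hlf, Elane and Fcer1a cells of the control B220lo library, at 12, 13.4 and 21.4 CPM. Across 11051 control Kit+ cells there was 1 Cryab UMI, and across 12591 deleted Cd79a cells there were 3. The deleted Hlf, Elane and Car1 classes had 0. In SI cells the gene was at 14 CPM in Hlf (12.9 to 15.1, 587 UMIs), 10.3 CPM in Elane (9.49 to 11.2, 567 UMIs), 19.3 CPM in Pf4 (118 UMIs) and 26.4 CPM in Fcer1a (24.6 to 28.2, 811 UMIs). The SI Car1 class was the exception, with 10 UMIs and 0.597 CPM (0.286 to 1.10), its interval below those of the other 4 classes. Taking 3 counts over the class as the limit that 0 UMIs allow, Cryab was at least 215-fold higher in SI Elane cells and at least 12.5-fold higher in SI Fcer1a cells. In the Hlf class the ratio was 409 (73.2 to 16195) over a single control UMI. Hspb2, which overlaps Cryab on the opposite strand, had 20 UMIs (0.364 CPM) in SI Elane cells and 0 in control. Reads from overlapping genes may not be separable where strand is lost.

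Hspb1, the other small heat-shock gene described, stayed at or near 0. SI cells had 0.381 CPM in Hlf (16 UMIs), 0.218 in Elane, 0.358 in Car1, 0.653 in Pf4 and 0.682 in Fcer1a (21 UMIs). Control Kit+ cells had 3 UMIs in the Hlf class and 0 in the Elane, Car1, Pf4 and Fcer1a classes. The deleted Cd79a cells had 0.235 CPM (23 UMIs). All of these values rest on fewer than the 100 UMIs required here before a fold was counted.

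The partners of HSP70 and the constitutive chaperones did not follow it. Dnajb1 in the Elane class was at 43.3 CPM (41.6 to 44.9) in control, 47.7 CPM (43.7 to 51.9) with the deletion and 49.1 CPM (47.2 to 50.9) in SI. Its SI over control ratios were 1.09 in Hlf, 1.13 in Elane, 1.08 in Car1, 1.18 in Pf4 and 1.26 in Fcer1a. All 5 were above 1 and none reached 1.5. Hsph1 was at 24.7 CPM (23.4 to 25.9), 33.0 CPM (29.7 to 36.6) and 27.8 CPM (26.4 to 29.2) in the same Elane cells, with the deleted library highest. Its SI ratios ran from 0.979 in Hlf to 1.51 in Fcer1a (1.06 to 2.23). Hsp90aa1 was at 485, 587 and 453 CPM in Elane and at 1236, 1405 and 1247 CPM in Car1 cells of control, deleted and SI. Its SI ratios lay between 0.933 and 1.01. Hspa8 was at 1706, 1663 and 1456 CPM in Elane and at 2368, 2049 and 2031 CPM in Car1 cells. Its SI ratios were 0.937 in Hlf, 0.853 in Elane and 0.858 in Car1, with intervals below 1, and 1.06 in Pf4 (1.03 to 1.09). In each of the 3 Kit+ libraries Hsph1 and Hsp90aa1 stood highest in the Car1 class among the classes compared, Hsph1 at 75.9, 78.7 and 80.2 CPM. Because UMIs are not scaled to transcript length, levels are compared here across libraries and classes and not between genes.

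A member was counted as changed where log2 of the ratio of CPM + 1 was at least 1 either way with at least 100 UMIs in the higher library. By that rule 14 of 40 member-by-class values were higher in SI, 0 were lower, 20 were within 2-fold and 6 had too few UMIs. The 14 were Hspa1a and Hspa1b in 5 classes and Cryab in 4, and 11 of the 40 passed among cells that met exactly 1 class rule. Of all genes with enough UMIs, 1.6% were that much higher in Hlf, 1.47% in Elane, 0.69% in Car1, 1.62% in Pf4 and 6.87% in Fcer1a. The corresponding shares lower were 1.16%, 0.618%, 0.548%, 1.42% and 1.1%. The directions had unlike limits, because 100 UMIs are a higher CPM in the library with the smaller class total. The Fcer1a class held 1424410 UMIs in control and 30769700 in SI, so genes too low to count as lower could count as higher. Its share higher is therefore not read against its share lower, and the median over all genes there has the same limit. Since the members were picked with the contrast of SI and control known, nothing is read from their count. As a description, 22 of the 11488 genes tested in the Elane class had a larger log2 ratio than Hspa1a, 24 than Hspa1b and 13 than Cryab. The 20 values within 2-fold ran on the log2 scale from -0.23 (Hspa8, Elane) to 0.57 (Hsph1, Fcer1a), and the median over all genes tested was 0.03 in Hlf, 0.04 in Elane, -0.00 in Car1, 0.02 in Pf4 and 0.19 in Fcer1a.

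**Figure D2:**
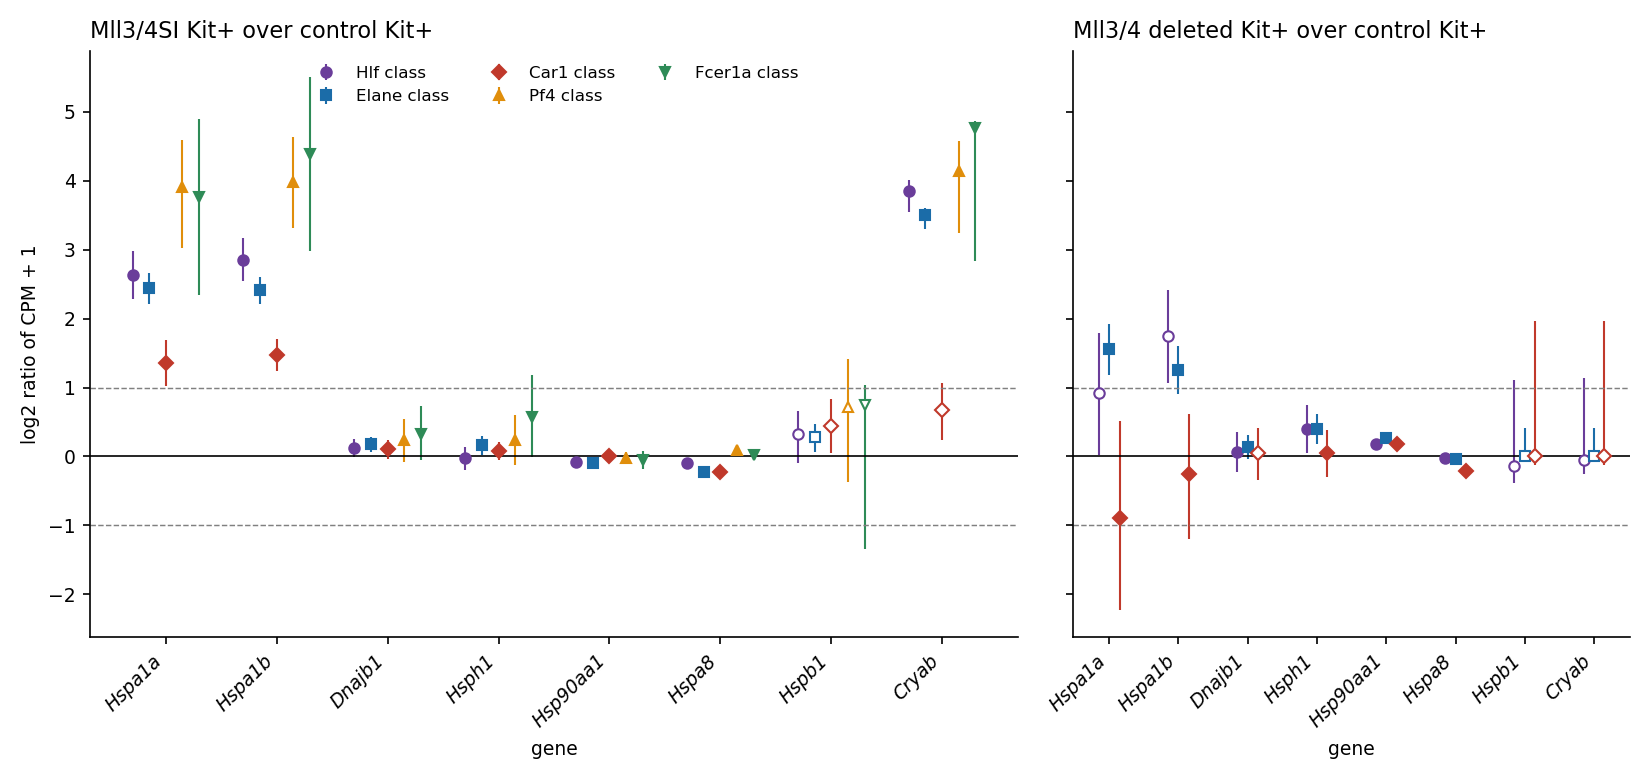
Log2 ratio of CPM + 1 over control Kit+ (y axis) for each gene (x axis) and class (colours and shapes), with 95% intervals, for SI (left) and deleted (right). Dashed lines mark 2-fold and hollow points have under 100 UMIs in the higher library; in SI the points of Hspa1a and Hspa1b lie above the upper line, as do those of Cryab except Car1, and those of Dnajb1, Hsph1, Hsp90aa1 and Hspa8 lie between the lines.

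In the deleted library the HSP70 genes were also above control in 2 of the 3 classes that could be compared. All 3 also carried more B-cell marker RNA than control, as given above, and its part was not tested. In the Elane class Hspa1a was 3.44-fold higher (2.78 to 4.25) and Hspa1b 2.65-fold (2.18 to 3.20), and these were the only 2 of 24 values past 2-fold with enough UMIs. With a pseudocount of 10 CPM neither passed, at log2 ratios of 0.75 and 0.66. In that class 1.32% of all genes tested were at least 2-fold higher and 2.39% lower. In the Hlf class Hspa1b was 4.15-fold higher (2.76 to 6.14, 38 UMIs) and Hspa1a 2.33-fold (1.23 to 4.14, 15 UMIs), below the UMI minimum. There 0.629% of genes were higher and 3.86% lower. Car1 cells had ratios of 0.452 (0.0924 to 1.34) for Hspa1a and 0.825 (0.423 to 1.46) for Hspa1b from 3 and 12 UMIs in 62 cells, with 1 inside both intervals. There 0.0791% of genes were higher and 5.78% lower. Both comparisons use the same control cells, so they are not independent. Summed Hspa1 in Hlf cells was 5.12 CPM (4.33 to 6.01) in control, 17.4 (13.0 to 22.7) in deleted and 46.2 (44.2 to 48.3) in SI. In Elane cells the 3 levels were 9.34, 27.8 (24.8 to 31.1) and 58.9 CPM. In both classes the deleted library lay between the others, with no overlap of intervals. Unlike HSP70, Cryab had no UMI in the deleted Hlf and Elane classes, where the limit of 3 counts allows up to 0.984 and 0.273 CPM.

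No other member passed 2-fold with enough UMIs in the deleted library. Hsph1 was 1.33-fold higher in Hlf (1.09 to 1.61), 1.34-fold in Elane (1.19 to 1.5) and 1.04-fold in Car1. Hsp90aa1 ratios were 1.13, 1.21 and 1.14, each with an interval above 1, and Hspa8 ratios 0.981, 0.975 and 0.865. Dnajb1 ratios were 1.05, 1.10 and 1.03. Within 2-fold, some still ranked high among all genes. A larger log2 ratio than that of Hsph1 was held by 257 of 8423 genes in Hlf and 428 of 10379 in Elane. For Hsp90aa1 the numbers were 1239 and 937, with 360 of 6320 in Car1, and for Hspa8 they were 3436, 5887 and 3782.

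Depth per cell differed between libraries, so the share of cells with an HSP70 transcript was taken after thinning each cell to 2000 UMIs. In the Elane class an Hspa1 UMI was found in 1.64% of cells of the control library (1.28 to 2.08, exact binomial), 4.51% in the deleted library (2.94 to 6.59) and 9.48% in the SI library (8.50 to 10.5). In the Hlf class the shares were 0.645%, 2.72% and 6.85%. For Car1 they were 3.64%, 3.28% and 8.87%. Control and SI cells gave 0.514% and 10.8% in the Pf4 class and 1.57% and 13.0% in the Fcer1a class. The control Fcer1a share was 2 of 127 cells in 1 random draw, and averaged over all draws it was 0.369%, against 12.2% in SI. SI intervals lay above control intervals in all 5 classes. Without thinning, the share was 3.81%, 16.7% and 26.5% in Hlf and 8.79%, 27.3% and 37.7% in Elane for control, deleted and SI. Cells under 2000 UMIs, left out of the thinned shares, numbered at most 24 in a compared class, but 306 among the deleted and 1291 of 10839 among the B220lo Cd79a cells. The lowest share among classes of over 1000 cells was 0.408%, in B220lo Cd79a cells (class median 3077 UMIs before thinning). That is another suspension and gives no background for the SI library, where no class known to lack HSP70 was at hand. SI Cd79a cells had an Hspa1 UMI in 1 of 24 (4.17%, 0.105 to 21.1), so the part of free RNA in the SI shares was not measured.

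Cryab was scarce in the SI Car1 class, but it was singled out by these same counts and gives no independent measure of free RNA. At 2000 UMIs Cryab was found in 3.04% of SI Hlf cells (2.47 to 3.69) and 2.13% of Elane (1.67 to 2.68). It was found in 4.45% of Pf4 (2.77 to 6.72) and 5.05% of Fcer1a cells (4.2 to 6.01). Only 1 of 868 SI Car1 cells, 0.115% (0.00292 to 0.640), had a UMI. The Car1 cells were the deepest of these classes, with a median of 18354 UMIs at full depth against 11572 in Hlf, and 0.806% of them had a Cryab UMI at full depth against 14.2% of Hlf cells. Control cells had 0 of 4199 in Elane, which allows a share of up to 0.0714%, taking 3 cells as the limit.

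Cells were then grouped by their Hspa1 UMIs. In SI Elane cells at full depth 62.3% had no Hspa1 UMI, 15.4% had 1, 17.5% had 2 to 4 and 4.78% had 5 or more. In control Elane cells the shares were 91.2%, 6.11%, 2.34% and 0.332%. The highest count in a single cell was 27 in SI and 10 in control.

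**Figure D3:**
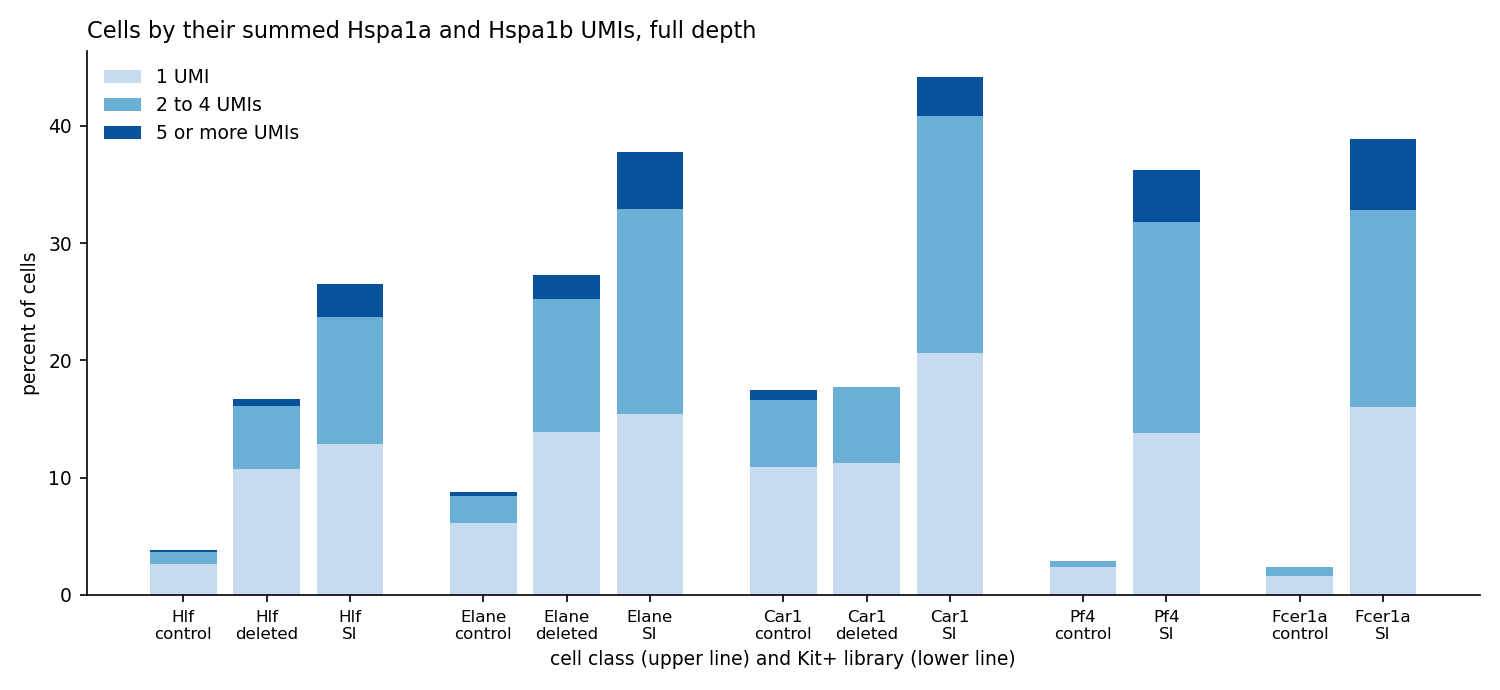
Percent of cells (y axis) with 1, 2 to 4, and 5 or more summed Hspa1a and Hspa1b UMIs at full depth, by class and Kit+ library (x axis). The SI bars reach 26.5% in Hlf to 44.2% in Car1 and exceed the control bar in each class.

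Co-detection in single cells was asked next. At 2000 UMIs, Hspa1b was found in 28.57% of SI Fcer1a cells with an Hspa1a UMI and in 7.12% of those without. The pairs of shares were 18.42% and 4.6% in Hlf, 12.77% and 5.48% in Elane, 11.11% and 5.95% in Car1, and 30.43% and 6.24% in Pf4. Hspa1b was more frequent beside Hspa1a in all 5 SI classes at this depth, though from only 27 and 23 Hspa1a cells in Car1 and Pf4, and at 4000 UMIs. At 1000 UMIs it was so in Hlf, Elane and Fcer1a, whereas 0 of 13 Car1 and 0 of 10 Pf4 cells with Hspa1a also had Hspa1b, against 3.50% and 6.28% of those without. Because the pair is so alike at the 5′ end, reads of 1 gene assigned to the other were not told apart from this.

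Other members were compared in the same way. In SI Elane cells Hsph1 was found in 8.54% (5.71 to 12.2) of cells with an Hspa1 UMI and 5.43% (4.65 to 6.30) of those without, and Dnajb1 in 6.33% (3.91 to 9.61) and 8.51% (7.54 to 9.57). For Dnajb1, Hsph1 and Cryab in 5 classes, 0 of 15 pairs of intervals lay apart with the higher share beside HSP70, against 10 of 15 without thinning. A single pair lay apart the other way, Cryab in Hlf cells, at 0.452% (0.0115 to 2.5) with and 3.23% (2.63 to 3.92) without. That pair depended on the random draw. Averaged over all possible draws of 2000 UMIs, a calculation added after seeing it, Cryab was expected in 3.41% of Hlf cells with and 2.65% without. By the same average Hsph1 was more frequent beside HSP70 in all 5 SI classes, by 1.01 to 3.18 percentage points, for example 7.53% against 5.18% in Hlf and 9.57% against 6.39% in Pf4. Dnajb1 was more frequent by 0.115 to 1.46 points, and Cryab ranged from -0.803 points in Elane to 2.30 in Pf4. Hsp90aa1 ranged from -1.70 to 3.52 points and Hspa8 from -2.67 to 1.67 points. In control cells the Hsph1 difference was 0.737 points in Hlf, -0.505 in Elane, 2.56 in Car1, 1.23 in Pf4 and 1.21 in Fcer1a. These averages carry no interval.

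At full depth, SI Elane cells with 0, 1, 2 to 4, and 5 or more Hspa1 UMIs had Hsph1 at 24.2, 29.3, 33.8 and 36.9 CPM. Dnajb1 was at 47.7, 45.3, 53.1 and 58.2 CPM in those groups, and Cryab at 11.8, 8.03, 8.15 and 9.85 CPM. From the first group to the last, Hsp90aa1 went from 427 to 519 CPM and Hspa8 from 1403 to 1559 CPM. Median depth of the groups went up as well, from 14950 to 20008 UMIs, and its part in the trend was not tested. In SI Hlf cells Hsph1 was at 26.6, 31.8, 37.4 and 32.7 CPM. In control Car1 cells Hsph1 was at 71.7, 90.2, 84.0 and 128 CPM, the last from 18 cells and 73 UMIs. Control Elane cells had 24.5, 27.0, 21.2 and 41.1 CPM, the last from 14 cells and 12 UMIs. Control Hlf cells had 28.9, 47.1, 37.5 and 32.7 CPM, the last from 4 cells and 3 UMIs. Across single SI cells, Pearson correlations of log-scaled values of Hspa1 with Hsph1 were 0.0568 to 0.137 over the 5 classes, against 0.239 to 0.372 between Hspa1a and Hspa1b. For Dnajb1 they were 0.00204 to 0.0610, for Cryab -0.0666 to 0.101, for Hspa8 -0.0316 to 0.129 and for Hsp90aa1 -0.0395 to 0.105. Though low, some ranked high among all genes. Hsph1 ranked 26 of 9629 in Fcer1a, 85 of 9677 in Pf4, 96 of 9759 in Hlf, 151 of 9709 in Elane and 979 of 9396 in Car1. Hsp90aa1 ranked 25 in Fcer1a, 402 in Pf4, 1053 in Hlf, 1807 in Elane and 8408 in Car1. The SI cells share 1 library and the counts are sparse. Cells with at least 3 of the 6 genes Hspa1a, Hspa1b, Dnajb1, Hsph1, Hspb1 and Cryab at 2000 UMIs were rare. There were 14 of 2338 in SI Fcer1a, 4 of 3226 in Hlf, 0 of 3335 in Elane, 4 of 868 in Car1 and 2 of 472 in Pf4. Control had 0 such cells in the same 5 classes and deleted 1 of 554 in Elane. These counts depended on depth. At 4000 UMIs SI Elane had 42 of 3278 such cells, and control had 5 of 4123 in Elane and 6 of 2260 in Car1. At 1000 UMIs control Car1 had 1 of 2288 and the 5 SI classes had 0.

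**Figure D4:**
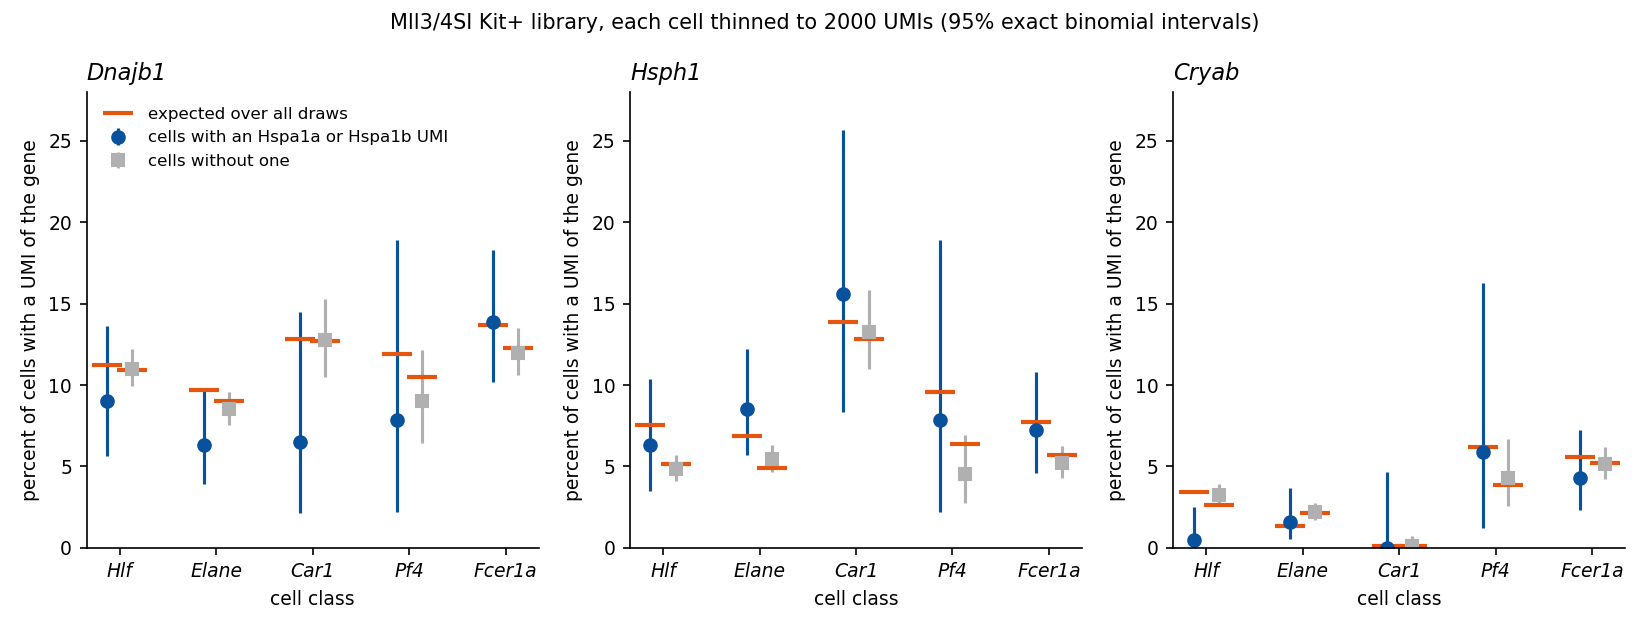
Percent of SI Kit+ cells with a UMI of Dnajb1, Hsph1 or Cryab (panels) at 2000 UMIs per cell, for cells with and without an Hspa1a or Hspa1b UMI, by class (x axis), with 95% exact binomial intervals and orange dashes for the share expected over all draws. In 14 of 15 pairs the intervals overlap, and Cryab in the Hlf class does not.

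The rest of the chaperone network was taken from 10 gene lists. Of 31 cytosolic chaperones and co-chaperones, 30 had enough UMIs in SI Elane cells, with a median log2 ratio of 0.02 against 0.04 for all genes. There 1 was at least 2-fold higher and 0 were lower, beside 1.47% and 0.618% of all genes. Shares of all genes in the other SI classes are given above. The higher gene was Dnaja4, an HSP40 family member, at 0.384 CPM in control (24 UMIs) and 2.28 CPM in deleted (25 UMIs). It was at 1.91 CPM in SI (105 UMIs), a ratio of 4.98 (3.17 to 8.11). It also passed in Fcer1a, on 2 control UMIs, and no gene of the list did in Hlf, Car1 or Pf4. Hspbp1 and Bag5, co-factors of HSP70, had the smallest ratios in Elane, 0.882 and 0.904.

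None of the 5 genes of the heat-shock factor list passed 2-fold in an SI class. Median log2 ratios of those with enough UMIs were 0.27 in Hlf, 0.11 in Elane, 0.10 in Car1, 0.27 in Pf4 and 0.20 in Fcer1a. For all genes they were 0.03, 0.04, -0.005, 0.02 and 0.19. Hsf1, the main activator of the inducible genes, was at 41.9 CPM in control, 44.6 in deleted and 41.5 in SI Elane cells, and the SI ratio was 0.99 (0.936 to 1.05). Hsf2 had a ratio of 1.09 and Hsbp1, which binds heat-shock factor 1, one of 1.15. Of the 7 other small heat-shock genes, 2 had enough UMIs in Elane and neither passed, Hspb6 at 1.44-fold and Hspb11 at 0.960. None of the 8 chaperonin subunits or 8 mitochondrial chaperones passed in any SI class. Their medians in Elane were -0.04 and -0.06, with Cct8 at 0.940 and Hspa9, the mitochondrial HSP70, at 0.881.

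Other stress programmes were checked for the same cells. Among 18 endoplasmic reticulum chaperone and unfolded protein response genes, 0 were higher in any of the 5 SI classes. Trib3, a pseudokinase of the integrated stress response, was lower in Hlf, Elane (8 against 108 UMIs, ratio 0.0842, 0.0355 to 0.172) and Car1, and Xbp1 was lower in Fcer1a. Calr had the largest ratio of that list in Elane, 1.39, and Atf4 stood at 0.659. Of 18 immediate early genes, which dissociation and handling are known to raise, 1 of 15 with enough UMIs passed 2-fold in SI Hlf cells (Fosb), 1 of 9 in Fcer1a (Fosb) and 1 of 9 in Pf4 (Jun), beside 1.6%, 6.87% and 1.62% of all genes. Jun was at 26.5 CPM in control, 11.9 in deleted and 51.2 in SI Elane cells, ratios of 0.450 and 1.93 over control. In single SI Fcer1a cells Jun ranked 2 of 9629 genes by correlation with Hspa1 (r = 0.134). Its part in the HSP70 values was not tested. Srxn1 (oxidative stress) and Trp53inp1 (a p53 target) passed in Fcer1a alone of the 5 SI classes, and 0 of 4 ubiquitin genes passed in any. In the deleted library 0 genes of the 10 lists with enough UMIs were at least 2-fold higher, Dnaja4 falling under the minimum with 25 UMIs. Median log2 ratios in its Elane cells were 0.27 for endoplasmic reticulum genes, 0.15 for cytosolic chaperones and 0.11 for chaperonin, against -0.003 for all genes. Small heat-shock, immediate early and ubiquitin genes were at -0.27, -0.31 and -0.05. Of all genes, 0.629%, 1.32% and 0.0791% were higher and 3.86%, 2.39% and 5.78% lower in deleted Hlf, Elane and Car1 cells. With smaller deleted class totals, a gene could count as lower at a level too low to count as higher. The list genes higher and lower are therefore not set against each other. Lower were Jun in 3 classes, Fos and Dusp1 in Hlf, Hmox1 in Hlf and Elane, and Trib3, Sesn2, Ier5 and Btg2 in Car1. These genes were named by their position in the lists or because their counts were small, after values were seen.

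**Figure D5:**
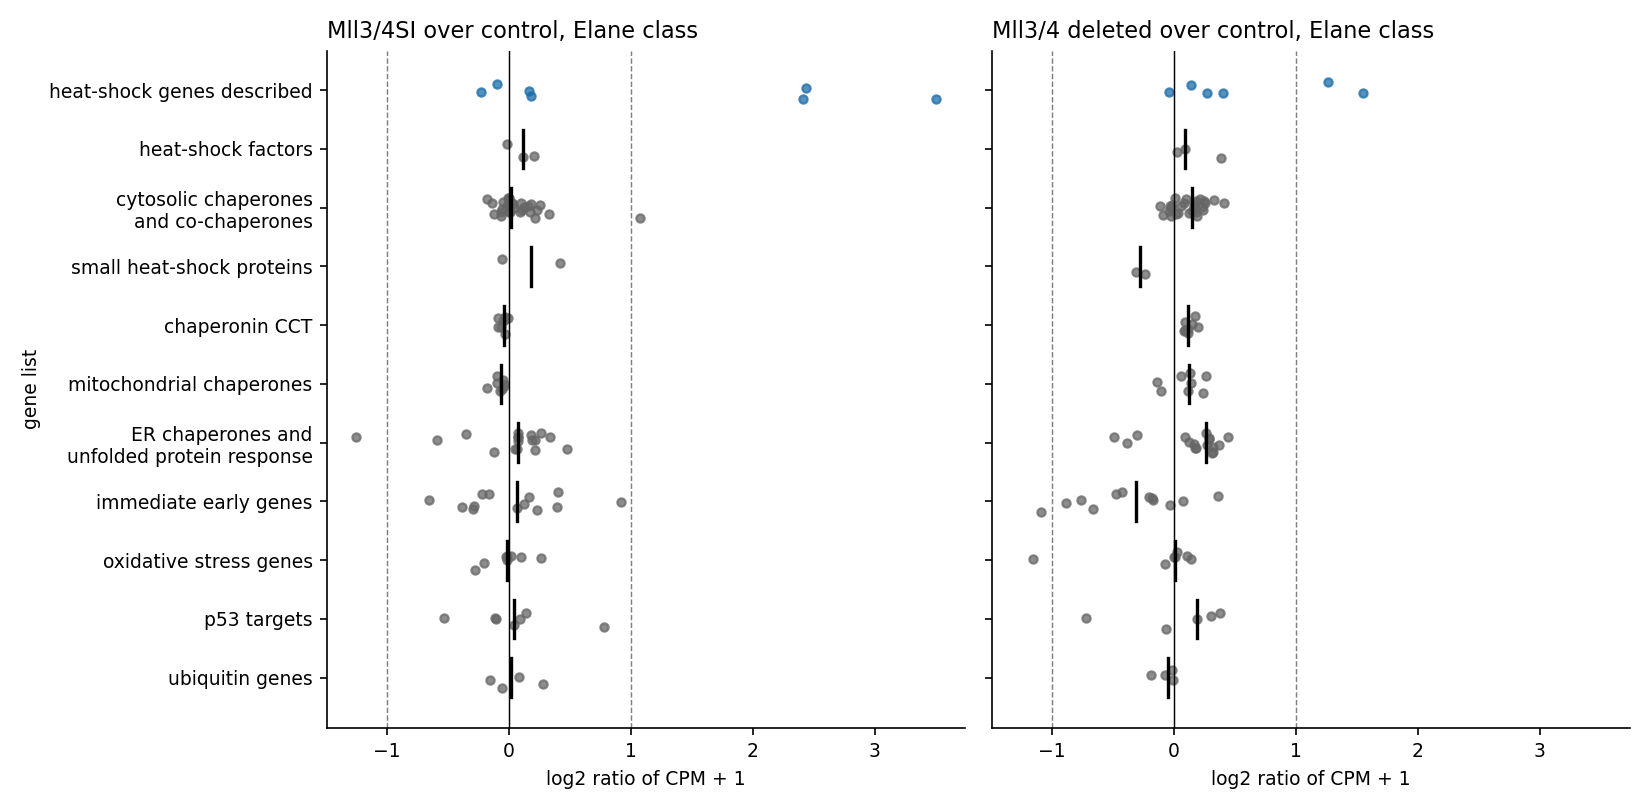
Log2 ratio of CPM + 1 over control Kit+ in the Elane class for the described genes (top row) and the genes of each list with at least 100 UMIs in the higher library, SI left and deleted right, where bars mark each list's median. In SI the described genes include 3 points past 2-fold higher and the lists 1, Dnaja4, with Trib3 past 2-fold lower.

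Genes around the members were read where they had enough UMIs. Within 100 kb of Hspa1a, in the gene-dense histocompatibility region, 11 of 19 genes had enough UMIs in SI Elane cells, and their log2 ratios ran from -0.09 to 0.23. In deleted Elane cells 9 had enough, from -0.43 to 0.79. Within 100 kb of Cryab, 5 of 8 had enough in SI Elane cells, from -0.08 to 0.10. Hspb2, which overlaps Cryab, was under the minimum but had 20 UMIs in SI Elane and 40 in SI Hlf cells, against 0 in control. Leaving out the members themselves, no neighbour of the 8 genes with enough UMIs passed 2-fold in the Hlf or Elane class, although 0 of the 7 neighbours of Hspa8 had enough UMIs to be read.

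Levels most like summed Hspa1 were sought over 17 groups of a library and a class with at least 50 cells, by Pearson correlation of log2(CPM + 1) among 12071 genes. Isoc2a came first (r = 0.896), then Hddc3 (0.841), Smim40 (0.836), Ndufa3 (0.819), Cox18 (0.811), Serpina3i (0.795), Gtf3c6 (0.790), Bst2 (0.783), Ide (0.772) and Ndufa4 (0.766). In Elane cells Isoc2a was at 9.78 CPM in control, 18.0 in deleted and 19.3 in SI, and Hddc3 at 7.52, 9.57 and 26.4 CPM. Of the other members, Cryab had r = 0.727, Hspb1 0.646, Hsph1 0.254, Dnajb1 0.249, Hspa8 0.154 and Hsp90aa1 0.140. The groups share libraries, so these are descriptions. They include the B220lo Hlf, Elane and Cd79a groups. Without that library, over 14 groups, 9 of the 10 genes were again among the first 10, with Bst2 first (r = 0.905), Isoc2a next (0.889) and Tpmt (0.833) in place of Ndufa4, and Cryab had r = 0.780. Within single SI cells the highest correlations were low, 0.18 for Atp8b4 in Hlf, 0.178 for Aopep in Elane, 0.163 for Tes in Car1, 0.194 for Usp50 in Pf4 and 0.144 for Sox5 in Fcer1a. In Hlf cells the first 10 were Atp8b4, Zeb2, Hspa5, Rab44, Mpo, Ap3s1, Calr, Hsp90b1, Nup210 and Xylt1 (r from 0.13 to 0.18). Of these, Mpo is an Elane-class marker and Calr belongs to the endoplasmic reticulum list. Calr also ranked 8 of 9629 genes in Fcer1a cells (r = 0.115).

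Summed Hspa1 in SI cells with 7 to 9 Elane UMIs, just outside, was 63.2 CPM and with 10 to 12, just inside, 66.7 CPM. In control the values were 5.29 and 4.81 CPM. For Fcer1a in SI they were 60.7 CPM at 2 UMIs and 59.5 at 3, and for Pf4 65.4 and 56.7 CPM. Other limits separated the values. SI Car1 cells went from 100 CPM (80.3 to 123) to 57 CPM (41.1 to 77) across theirs, and had 64.8 CPM at 10 to 29 UMIs, 52 CPM at 30 to 99 and 41.2 CPM at 100 or more. Control Car1 cells ran the other way inside the limit, at 14.1, 15.4 and 18.8 CPM, after 6.82 CPM (3.12 to 12.9) just outside and 4.54 CPM (1.47 to 10.6) just inside. At the Hlf limit SI had 65.7 CPM in cells without Hlf, 52.8 CPM at 1 UMI, 39.2 CPM at 2 to 3 and 34.6 CPM at 4 or more. Control cells without Hlf had 11.2 CPM, those with 1 UMI 6.81 CPM, those with 2 to 3 1.87 CPM (15 UMIs) and those with 4 or more 3.26 CPM (9 UMIs). Cells with 1 Hlf UMI thus held 126 of the 150 Hspa1 UMIs of the control Hlf class. Deleted cells had 7.26 CPM (6.76 to 7.79) without Hlf, most of them Cd79a cells, 17.2 CPM (12.1 to 23.8) at 1 UMI, 25.9 CPM (14.8 to 42.1) at 2 to 3 and 2.94 CPM (0.0745 to 16.4, 1 UMI) at 4 or more.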

How the data were processed

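The authors deposited UMI count matrices, with whole-number counts per gene and cell barcode that are not normalized, made with Cell Ranger 7.1.0 on mm10 per the file headers and the submitters' processing notes; each deposited barcode held at least 500 UMIs. Reads came from a 10x Genomics 5′ kit, per the labels' protocols. A barcode was dropped if it had fewer than 1000 UMIs, fewer than 500 genes or a mitochondrial share over 10%, and then if its Scrublet score reached 0.25 (scanpy 1.11.5; doublets, 580 to 1168 per library). UMIs of a gene were added up over the cells of a class in a library and scaled by their total (CPM). Levels have exact Poisson intervals, ratios exact conditional binomial intervals and shares Clopper-Pearson intervals, all at 95% (scipy 1.17.1). Log2 ratios use a pseudocount of 1 CPM, so they understate the change of low genes. A class was compared where both libraries held at least 50 cells, and a fold counted with at least 100 UMIs in the higher library. Totals per library were 77184735 to 150923616 UMIs after filtering. Named from the lists are the 2 largest and 2 smallest SI ratios in the Elane class, with counts over the whole list. The members and lists were chosen with earlier results of these data known. The scripts were tested on simulated counts. Immunoglobulin contig tables were not used here. Gene positions are from GENCODE M21 (GRCm38), promoters from RefSeq.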

Additional observations from a re-analysis of the deposited data

Results flagged for a closer look

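The control B220lo library entered no fold comparison. Among its few cells of myeloid and progenitor classes, 11 heat-shock values had intervals above those of control Kit+ cells of the same class. They were picked for being higher, and no share over all genes is given beside them. Nothing is therefore read from their number. In its Hlf class (58 cells) Hspa1b was at 10.5 CPM (7 UMIs) and Cryab at 12 CPM (8 UMIs). In its Elane class (102 cells) Hspa1a was at 13.9 CPM (26 UMIs), Hspa1b at 21.4 CPM (40 UMIs) and Cryab at 13.4 CPM (25 UMIs). The Fcer1a class (26 cells) gave Hspa1a at 16.0 CPM (6 UMIs), Hspa1b at 42.8 CPM (16 UMIs) and Cryab at 21.4 CPM (8 UMIs). In the Car1 class (17 cells) Hspa1b was at 23.3 CPM (14 UMIs), Dnajb1 at 91.6 CPM (55 UMIs, control Kit+ 61.7 CPM) and Hsp90aa1 at 1672 CPM (1004 UMIs, control Kit+ 1236 CPM), and Cryab had 0 UMIs. Cd79a cells of the library had Cryab at 0.353 CPM (19 UMIs in 10839 cells). Others were lower than in control Kit+ cells, such as Hspa8 at 1080 CPM against 1706 and Hsp90aa1 at 368 CPM against 485 in the Elane class. Of its 102 Elane cells, 0, 2 and 1 had a barcode that the control Kit+, deleted and SI libraries also held. No test of a cause was made.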

How the results depend on the processing

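All 16 values past 2-fold kept their direction under the 11 alternatives run for them, and all stayed past 2-fold except with a pseudocount of 10 CPM, where 13 did. Sizes moved more. Of 64 values, 0 to 20 left their own interval per alternative, and all but the stricter cell filter moved at least 4. The pseudocount of 10 CPM lowered them, for example from 2.63 to 1.23 (Hspa1a, SI Hlf). Other SI log2 ratios rose for example from 2.85 to 3.5 (Hspa1b, Hlf, doubled thresholds) and from 3.77 to 5.28 (Hspa1a, Fcer1a, exactly 1 class). The count of SI values at least 2-fold higher was 14, and 11 to 14 under the alternatives (11 with only cells of exactly 1 class, where fewer UMIs were left). The deleted count was 2 higher and 0 with the pseudocount of 10 CPM, and 0 lower, or 1 with the mean of per-cell CPM (Hspa1a in Car1). SI shares of cells with HSP70 lay above control in 5 of 5 classes under each of the 5 alternatives. Co-detection depended on depth, also between Hspa1a and Hspa1b in Car1 and Pf4 (0 pairs at 1000 UMIs). The number of 15 SI pairs higher beside HSP70 with intervals apart was 0, and 10 unthinned and 1 at 4000 UMIs. The number lower was 1, and 0 unthinned, at 1000 UMIs, at 4000 UMIs and with only cells of exactly 1 class. Of 50 co-detection shares, 4 fell outside their interval when averaged over all draws, which was added after seeing the data. Leaving the B220lo library out of the correlation over groups, also added then, kept 9 of the 10 most alike genes. No paired analysis was possible because each group had 1 library. Depth limits Hspb1 in each class, HSP70, Dnajb1 and Cryab in deleted Car1 cells and HSP70 in control Fcer1a cells.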
